A study of Homo sapiens with 2 samples.

Results

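The genes that encode collagen chains were followed in the pair of substates of H9 cells, a human embryonic stem (ES) cell line. Members were the genes whose symbol has the form COL, number, A, number and that had a probe matched through its RefSeq accession. This gave 44 genes and 57 probes among the 22439 named genes of the array, with 1 probe for 33 genes, 2 probes for 9 genes and 3 probes for 2 genes. The study grew H9 cells without feeder cells in the medium TeSR-E8 on Vitronectin XF and moved cells to Matrigel at passage 35. It characterised both substates by staining on Matrigel, but the paper does not state the coating for the cells of each array. The study classified colonies by antibody staining into substate 1 (typical colonies, R-10G epitope strong and vimentin nearly absent) and substate 2 (wide spaces between cells, R-10G weak and vimentin strong). One single-colour Agilent array held RNA of substate 1 cells at passage 35 and the other held RNA of substate 2 cells at passage 50, so passage and substate cannot be told apart. With 1 array per group the difference could not be tested, so there are no p-values, and each value compares these 2 RNA samples of 1 cell line without a replicate check.

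Collagens are secreted or membrane-bound proteins whose chains wind around each other into a stiff helix. Fibril-forming collagens build the ropes of connective tissue, FACIT collagens (fibril-associated collagens with interrupted helices) sit on the surface of these fibrils, type IV collagens make the sheet of the basement membrane, and smaller classes form hexagonal nets, beaded filaments, anchoring fibrils or cell-surface stalks. Chains are hydroxylated and folded inside the cell, trimmed and crosslinked outside it, and bound by integrins and discoidin domain receptors. ES cells are an epithelium that lays down basement membrane, and Matrigel is itself a preparation rich in laminin and type IV collagen protein. The arrays read messenger RNA of the cells and not the collagen of the culture coating.

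The array design spans chains that lie side by side in the genome, and the short stretches between these genes are shown because each type IV pair is read outward from 1 such stretch. They were taken from RefSeq promoter sequences of the assembly GRCh38.p14, which held a window for 32 of the 44 genes, and are written 5′ to 3′ on the strand given, with capitals marking CCAAT or ATTGG and, in COL9A2, the E-box letters CAGGTG, known as a binding motif of ZEB and SNAI factors. COL9A2, the collagen gene with the highest difference, is shown with the 250 bases before its start on chromosome 1 (chr1:40317287-40317536, minus strand). The stretch between COL4A1 and COL4A2 is 126 bases (chr13:110307158-110307283, plus strand), the one between COL4A4 and COL4A3 is 135 bases (chr2:227164489-227164623, plus strand), and of the 379 bases between COL4A6 and COL4A5 the 250 nearest to COL4A5 are given (chrX:108439588-108439837, plus strand).
COL9A2: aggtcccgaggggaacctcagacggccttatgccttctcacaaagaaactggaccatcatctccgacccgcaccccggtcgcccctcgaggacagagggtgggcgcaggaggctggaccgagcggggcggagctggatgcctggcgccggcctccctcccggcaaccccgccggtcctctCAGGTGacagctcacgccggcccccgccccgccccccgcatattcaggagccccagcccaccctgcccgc
COL4A1 and COL4A2: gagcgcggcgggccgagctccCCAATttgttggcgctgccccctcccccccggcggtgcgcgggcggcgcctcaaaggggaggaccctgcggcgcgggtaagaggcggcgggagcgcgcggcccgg
COL4A4 and COL4A3: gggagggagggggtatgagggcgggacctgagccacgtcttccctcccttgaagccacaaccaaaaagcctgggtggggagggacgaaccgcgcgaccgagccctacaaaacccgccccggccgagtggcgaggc
COL4A6 and COL4A5: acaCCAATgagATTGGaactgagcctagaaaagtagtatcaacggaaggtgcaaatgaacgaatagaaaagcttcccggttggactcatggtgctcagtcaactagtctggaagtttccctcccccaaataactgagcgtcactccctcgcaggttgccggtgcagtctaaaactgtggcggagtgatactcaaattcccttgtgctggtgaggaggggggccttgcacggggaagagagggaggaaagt
The stretch between COL4A1 and COL4A2 held 1 CCAAT box, that beside COL4A5 held 2, and that between COL4A3 and COL4A4 held 0. Over windows of 300 bases, searched on both strands, CCAAT was found in 31.8% of 44 collagen windows and in 34.6% of all 35116 windows. The E-box CACCTG, whose other strand reads CAGGTG, was in 11.4% of the collagen windows and in 20.6% of all windows, and the collagen genes with it were COL4A3, COL4A4, COL8A2, COL9A2 and COL16A1. The GC box GGGCGG was in 54.5% and 45.0%. None of these motifs contains another, and a match describes the sequence and not a bound site.

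A gene was taken as measured when a probe was well above background, the scanner software's own flag, on both arrays. Of the 44 collagen genes 34 (77.3%) were measured, beside 71.3% of all named genes. No collagen gene was above background on 1 array only, where 4.26% of all named genes were. The 10 genes near background on both arrays were COL3A1, COL11A1, COL4A3, COL6A3, COL6A5, COL6A6, COL15A1, COL17A1, COL19A1 and COL28A1. The dimmest measured collagen probe gave 47.5 fluorescence units for substate 1 and 29.0 for substate 2, and the brightest one near background gave 11.54 and 16.5. The measured and unmeasured probes did not overlap in signal. The flag is itself a test of signal over background, so this gap is no separate evidence for it. Near-background genes fell in 7 of the 9 classes, with 3 of the 5 beaded filament genes among them and none of the short-chain genes.

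**Figure D1:**
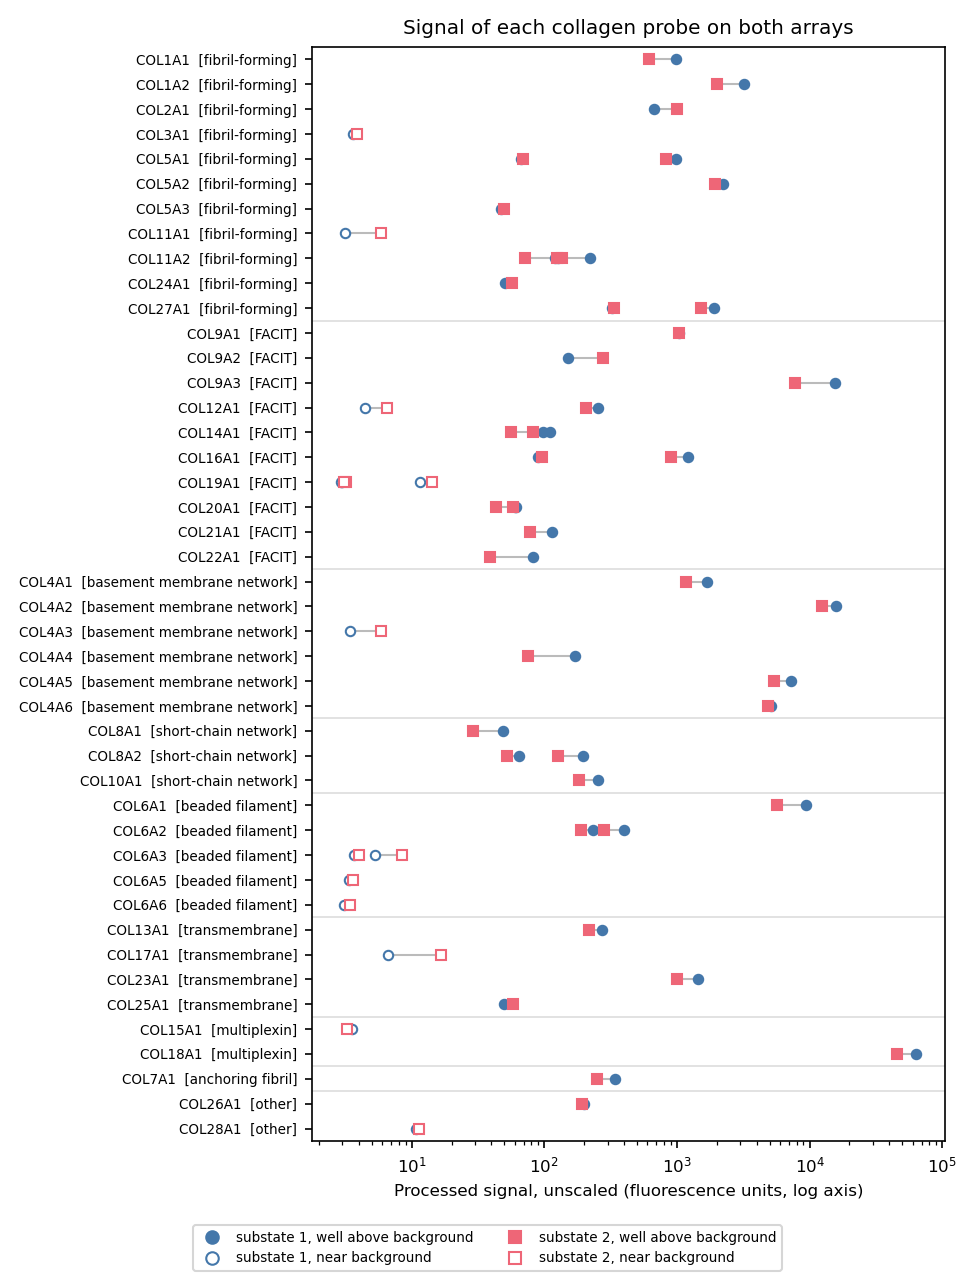
Processed signal of each collagen probe in fluorescence units on a log axis, by gene and class, with circles for substate 1 and squares for substate 2, filled where the probe was well above background and open where it was not. Of 57 probes 43 were filled on both arrays, and no probe was filled on one array and open on the other.

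At the 75th percentile of all probes the signal was 313.7 for substate 1 and 275.4 for substate 2. Signals are therefore given as scanned, whereas differences are substate 2 minus substate 1 on the log2 scale after each array's 75th percentile was subtracted, the scaling that the study used. The error beside a difference is the scanner software's spot error, which ranged from 0.204 to 0.295 for the measured collagen probes (median 0.21) and covers the array only, not the cells or the labelling. Among probes printed several times the SD of a difference from spot noise was 0.069, while 2 probes of the same gene differed by a median of 0.149, with the 90th percentile at 0.49.

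Collagen transcripts leaned to the substate 1 side. The median difference of the 34 measured collagen genes was -0.23 (quartiles -0.36 and 0.08), against 0.08 for the 16001 named genes measured on both arrays. Of the collagen genes 23 of 34 (67.6%) were lower in substate 2 by any amount, beside 40.2% of all named genes. Most of these differences were small. At least 1.5-fold higher were 2 of the 34, COL9A2 and COL2A1, beside 4.32% of all named genes, and at least 1.5-fold lower were 3, COL4A4, COL22A1 and COL9A3, beside 5.03%. At 2-fold the counts were 1 higher (COL9A2) and 1 lower (COL4A4), where 0.931% and 1.07% of all named genes passed. COL4A4 stood just at that limit and was inside it under median centring (-0.96), quantile (-0.957) and loess scaling (-0.98). Each of these 5 genes has 1 probe, and COL2A1 was the only one of them whose spot error reached back inside the 1.5-fold limit.

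**Figure D2:**
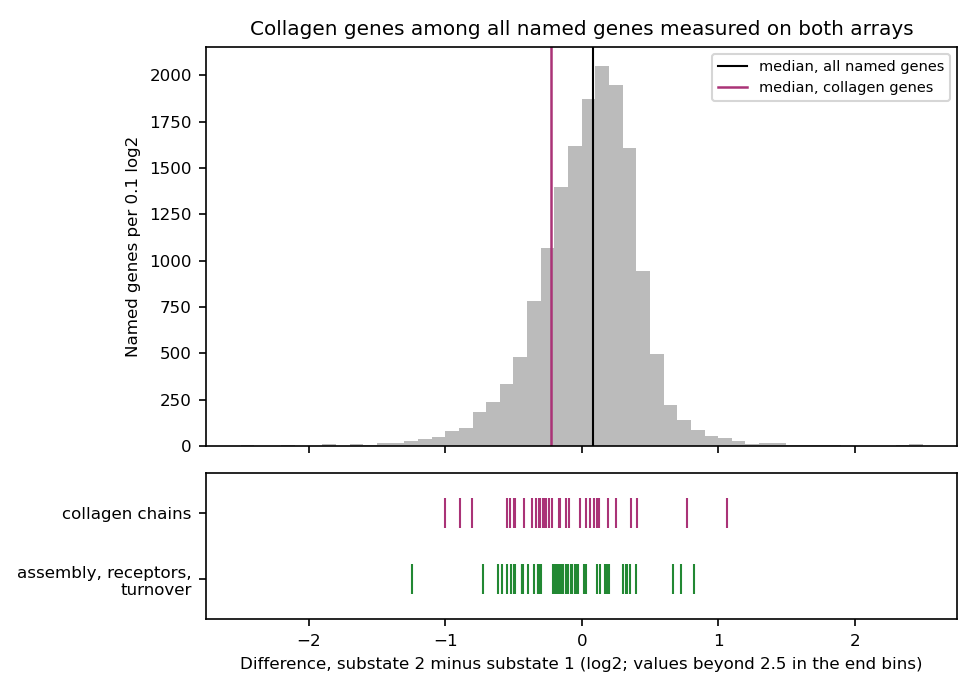
Histogram of the log2 difference (substate 2 minus substate 1) of all 16001 named genes measured on both arrays, with vertical lines at the medians, and below it 1 tick for each of the 34 collagen genes and each of 52 genes of collagen assembly, receptors and turnover. The collagen median lies at -0.23 and that of all genes at 0.08, and the collagen ticks reach from -1.002 (COL4A4) to 1.06 (COL9A2).

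The fibril-forming class held the chains of types I, II, III, V, XI, XXIV and XXVII. COL2A1, the chain of type II collagen of cartilage and notochord, gave 674 fluorescence units in substate 1 and 1010 in substate 2, a scaled difference of 0.77 ± 0.20 (spot error), or 1.71-fold. It was the fibril-forming gene with the highest value in substate 2 relative to substate 1. The chains of type I collagen, the main collagen of skin, tendon and bone, went the other way. COL1A1 read 987 and 618 units, a difference of -0.49 ± 0.20. COL1A2 read 3207 and 1992 units, a difference of -0.50 ± 0.20, as a mean over its 10 printed spots less 1 outlier spot. Both type I chains, whose proteins join in the same helix, thus stood about equally lower in substate 2, short of the 1.5-fold limit, which COL1A2 passed under loess scaling (-0.60).

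Type V chains, which sit inside type I fibrils and set their width, differed little. COL5A2 read 2214 and 1922 units (-0.02 ± 0.20). COL5A1 had probes at -0.05 and 0.23, and COL5A3 read 47.5 and 49.6 units (0.25 ± 0.27). No type V probe differed by more than its spot error, and no common direction was seen. COL11A2, a type XI chain found in cartilage fibrils beside type II, had 3 probes that disagreed. A pair of them for the same RefSeq transcript gave -0.56 and -0.53, with 121 and 222.5 units in substate 1 and 72.1 and 134.9 in substate 2. The other one, for a different RefSeq transcript of the gene, gave 0.17 with 126.8 and 124.9 units. COL11A2 therefore has a gene mean of -0.31 that describes none of its probes. The minor fibrillar chain COL24A1 read 50.5 and 57.0 units (0.36 ± 0.25), and COL27A1, a chain made in cartilage, had probes at -0.12 and 0.24. COL3A1, which accompanies type I in skin and vessels, and COL11A1 were near background on both arrays. Over the 9 measured fibril-forming genes 5 were higher and 4 lower, with a median of 0.06 that turned to -0.053 when the brightest probe stood for each gene.

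The FACIT class held the highest difference of the collagen genes and a pair of the lowest. Type IX collagen, which coats type II fibrils in cartilage, is built from the products of COL9A1, COL9A2 and COL9A3 in 1 molecule. COL9A2 read 151.9 units in substate 1 and 278 in substate 2, a difference of 1.06 ± 0.21, or 2.09-fold higher. COL9A3 read 15570 and 7811 units, a difference of -0.81 ± 0.20, or 1.75-fold lower. COL9A1 read 1036 and 1038 units, a difference of 0.19 ± 0.20. COL9A2 was thus higher and COL9A3 lower in substate 2, COL9A1 differed by less than its spot error, and COL9A2 and COL9A3 lay farther apart than their spot errors reach. COL9A2 ranked 121st from the top among the 16001 genes, and it was also a candidate gene that the study picked in part from these arrays, so its value is a description and no independent evidence. Its Z-score over all probes was 1.56, under the limit of 2. The score was computed as the study describes. The study nevertheless drew COL9A2 from its list of genes upregulated by Z-score, a call that the probe named here did not reproduce. The cause of this gap was not tested. The study also reported the gene as significantly upregulated by real-time PCR, which these arrays cannot check. COL9A3 ranked 334th from the bottom.

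Of the other FACIT genes COL22A1, which marks junctions such as that of muscle and tendon, read 81.6 and 38.7 units, a difference of -0.89 ± 0.24, or 1.85-fold lower. With normexp background correction, run with 50 units added to each signal, its difference was -0.36. COL14A1, a chain of dense connective tissue, had probes at -0.61 and -0.25, and COL21A1 read 115.2 and 78.7 units (-0.36 ± 0.22). These genes were all lower in substate 2. COL12A1, the close relative of COL14A1, had 1 probe measured, with 254.5 and 206 units (-0.12 ± 0.21), and another near background, with which the gene value became 0.31 under the flag gIsPosAndSignif. COL16A1 had a bright probe at -0.23 and a dim one at 0.29, and COL20A1 had probes at -0.30 and 0.11. In these last genes the direction depended on the probe. COL19A1 was near background by all 3 of its probes. The median of the 9 measured FACIT genes was -0.12, with 6 lower.

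Type IV chains form the network of basement membranes, and their 6 genes lie in head-to-head pairs on chromosomes 13, 2 and X with no protein-coding gene between the partners. COL4A1 and COL4A2, the chains of nearly every basement membrane, read 1673 and 1164 units (-0.34 ± 0.20) and 15900 and 12440 units (-0.17 ± 0.20). In this pair, divided by the 126 bases printed above, COL4A1 was lower by more than its spot error, and COL4A2 differed by less than its own. COL4A5 read 7221 and 5382 units (-0.24 ± 0.20), and its partner COL4A6 read 5136 and 4880 units (0.11 ± 0.20). COL4A6 turned to -0.02 under quantile and loess scaling and normexp. The difference between COL4A5 and COL4A6 lay within their summed spot error. In the remaining pair COL4A4 read 170.8 units in substate 1 and 74.9 in substate 2, a difference of -1.002 ± 0.22, or 2.0-fold lower, which became -0.58 with normexp background correction and then fell just short of 1.5-fold. Its partner COL4A3 was near background on both arrays, with 3.45 and 5.92 units. COL4A3, COL4A4 and COL4A5 make the network of the kidney filter, for which all of these chains are needed in 1 helix, and 1 of them was thus not detectable here. COL4A4 had the lowest difference of the measured collagen genes and ranked 165th from the bottom of all named genes.

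**Figure D3:**
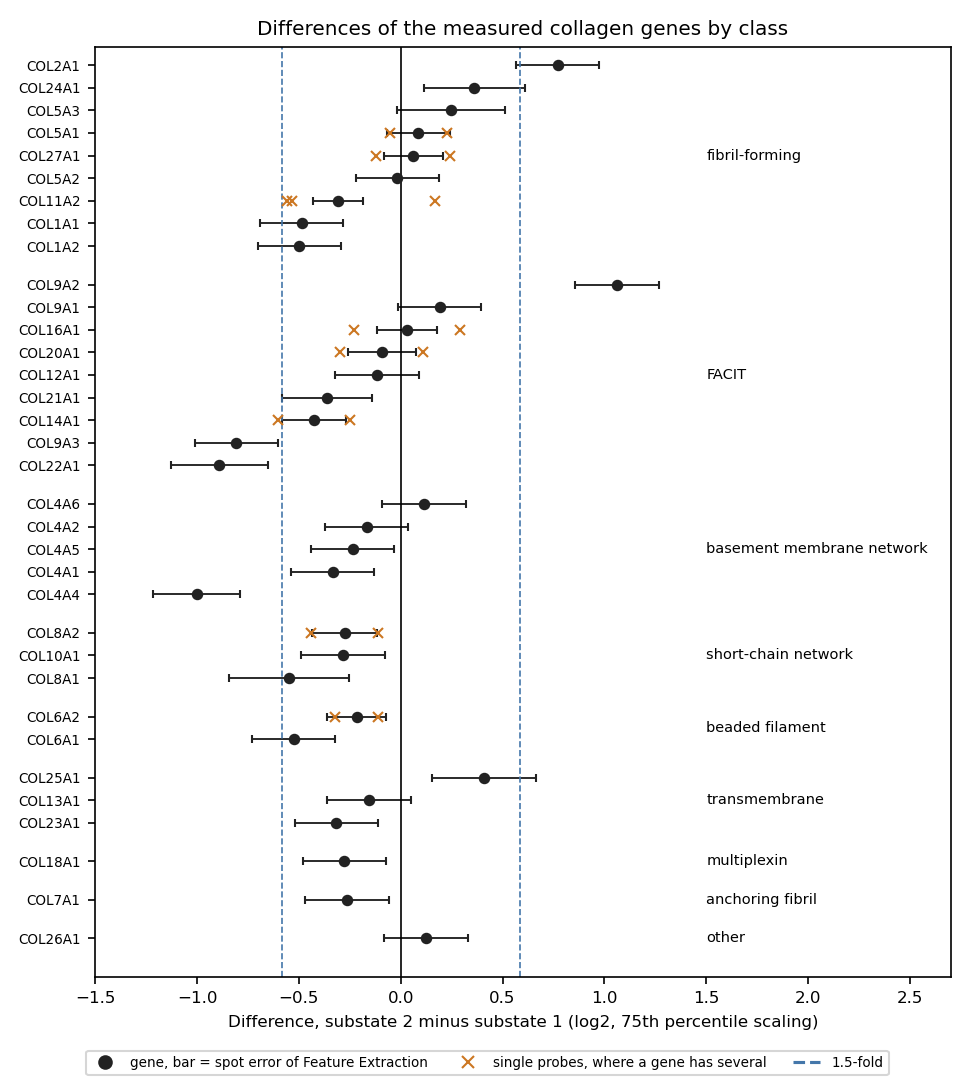
Log2 difference (substate 2 minus substate 1, 75th percentile scaling) of the 34 measured collagen genes by class, with bars for the scanner software's spot error, crosses for single probes of genes with several, and dashed lines at 1.5-fold. COL9A2 and COL2A1 lie right of the upper line and COL4A4, COL22A1 and COL9A3 left of the lower one, and the other 29 genes lie between the lines.

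The short-chain network genes all read lower in substate 2. COL8A1 gave 48.4 and 29.0 units (-0.55 ± 0.30), COL8A2, its partner in the inner corneal membrane, had probes at -0.44 and -0.11, and COL10A1, known from mineralising cartilage, gave 255 and 184 units (-0.28 ± 0.21). No difference in this class reached 1.5-fold. Type VI collagen makes beaded filaments near cells from the chains of COL6A1, COL6A2 and a further chain, most often that of COL6A3. COL6A1 read 9346 and 5703 units (-0.53 ± 0.20, and -0.67 under loess scaling, past 1.5-fold), and COL6A2, which lies beside it on chromosome 21, had probes at -0.32 and -0.11. COL6A3, COL6A5 and COL6A6 were near background on both arrays, so no gene for the further chain was measured in either substate.

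Among transmembrane collagens, which stand in the cell membrane, COL23A1 read 1431 and 1009 units (-0.32 ± 0.20) and COL13A1, known from the nerve-muscle junction, read 274.6 and 216 units (-0.16 ± 0.21). COL25A1, a neuronal collagen, read 49.6 and 57.8 units (0.41 ± 0.25). COL25A1 was the only one of the 3 measured transmembrane genes that was higher in substate 2, and COL17A1 of hemidesmosomes was near background with 6.61 and 16.5 units. COL18A1, the basement membrane collagen from which endostatin is cut, read 63590 and 46030 units (-0.28 ± 0.20), while its relative COL15A1 was near background. COL7A1, the anchoring fibril chain of skin, read 339 and 248 units (-0.26 ± 0.21), and COL26A1 read 199.7 and 191 units (0.12 ± 0.21). The median of the 3 transmembrane genes was -0.16, and 0.13 with the flag gIsPosAndSignif, a less strict test of signal over background. Apart from COL26A1 and COL25A1, the measured genes of these smaller classes were lower.

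Genes that differed in sign between their own probes show how far the array can resolve such values. Of 8 collagen genes with at least 2 measured probes, 5 had probes of opposite sign, namely COL5A1, COL11A2, COL16A1, COL20A1 and COL27A1. The probes of COL6A2, COL8A2 and COL14A1 kept 1 sign. COL1A2 was printed 10 times, and its spots, less the outlier, varied by an SD of 0.059 in substate 1 and 0.055 in substate 2 on the log2 scale, well under its difference.

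Genes that make, process, bind or remove collagen were described next to the chains from a list of 67 genes. Of these 52 were measured on both arrays, 5 were above background in substate 1 only, 1 in substate 2 only and 9 in neither, so 6 of 67 were seen on 1 array only, beside 4.26% of all named genes. The median difference of the 52 was -0.14, with 35 lower (67.3%, beside 40.2% of all named genes) and 17 higher. At least 1.5-fold higher were 3 of the 52 (CTSK, BGN and LOXL4), beside 4.32% of all named genes, and at least 1.5-fold lower were 3 (DDR2, SPARC and GP6), beside 5.03%. These shares lay near those of all named genes. Of these DDR2 alone passed 2-fold, by 1 dim probe.

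Inside the cell, the 9 measured genes of prolyl hydroxylation had a median of -0.13 and the 10 of folding and secretion one of -0.17. SERPINH1, the collagen-specific chaperone, read 35970 and 31050 units (-0.02 ± 0.20), and P4HB, a subunit of prolyl hydroxylase, had probes at -0.02 and 0.05. The lysyl hydroxylases PLOD1, PLOD2 and PLOD3 had differences of -0.32, -0.55 and -0.15. PLOD2, which modifies the chain ends used for crosslinks, was the lowest of them with 1269 and 763 units. SPARC, a collagen-binding glycoprotein listed with the chaperones, read 6947 and 3690 units (-0.73 ± 0.20), or 1.65-fold lower, and was the only gene past 1.5-fold among the 24 measured genes of hydroxylation, glycosylation, folding and secretion.

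Outside the cell, BMP1, the protease that trims the end of fibrillar chains, read 13.96 units near background in substate 1 and 28.9 in substate 2, at least 2.28-fold higher against the dimmest probe well above background. LOX, the founding crosslinking enzyme, was above background in substate 1 only, with 18.4 and 16.6 units, and no fold can be given. FN1, the fibronectin gene, read 26.6 units in substate 1 and 11.1 near background in substate 2, at least 1.55-fold lower. BMP1, LOX and FN1 had 1 dim probe each, which limits what they show of the level of the gene. The list thus held bounds in both directions. LOXL4, a relative of LOX, read 16.8 and 23.4 units (0.67 ± 0.41), and the proteoglycan BGN read 24.4 and 35.3 units (0.72 ± 0.33). The signals of LOXL4 and BGN were dim, and their errors were accordingly wide. CTSK, a protease that cleaves collagen helices, read 4036 and 6274 units (0.82 ± 0.20), or 1.77-fold higher, the highest difference among the list genes measured on both arrays.

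Of the 7 measured collagen receptor genes 6 were lower in substate 2 by any amount, beside 40.2% of all named genes, and LAIR1 (-0.07 ± 0.26) and ITGB1 among them lay within their spot error. The integrin subunit ITGA11 was higher (0.33 ± 0.27), and ITGA10 read 30.3 units in substate 1 and 17.1 near background in substate 2, at least 1.55-fold lower. DDR2, a receptor tyrosine kinase for fibrillar collagen, read 58.5 and 21.7 units (-1.24 ± 0.31), or 2.36-fold lower. Its relative DDR1 had probes at -0.32 and -0.72. GP6, the platelet collagen receptor, read 47.5 and 27.2 units (-0.62 ± 0.36). The signals of DDR2 and GP6 were dim too, each came from 1 probe, and their errors were also wide. ITGB1, the subunit shared by all collagen-binding integrins, read 1034 and 826 units (-0.14 ± 0.20) and differed by less than its spot error. The basement membrane partners of type IV collagen NID1, NID2 and HSPG2 had differences of -0.49, -0.44 and -0.50. Of the type IV chains COL4A1, COL4A4 and COL4A5 were lower by more than their spot error, and COL4A2 and COL4A6 differed by less.

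**Figure D4:**
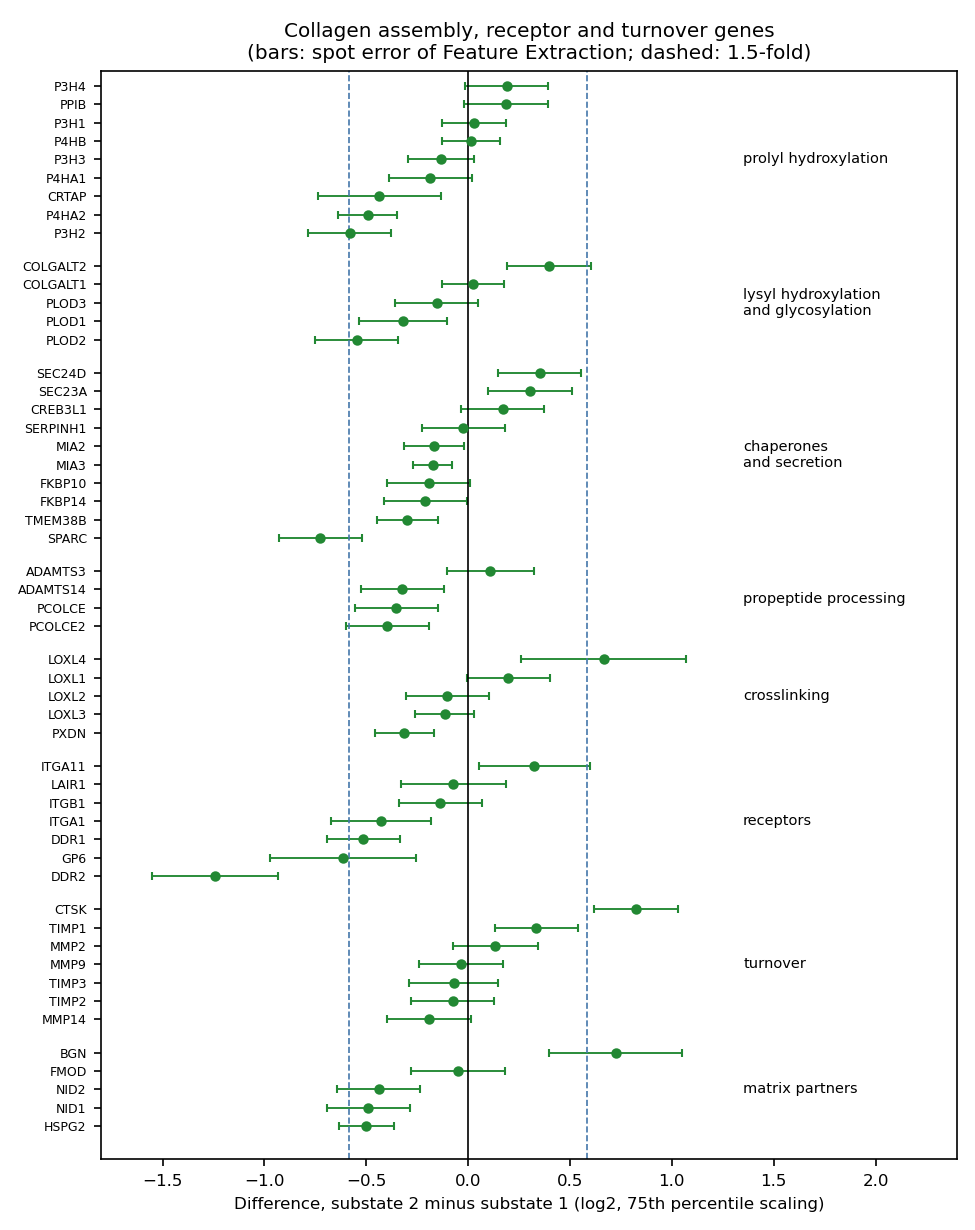
Log2 difference (substate 2 minus substate 1, 75th percentile scaling) of the 52 measured genes of collagen assembly, receptors and turnover in 8 groups, with bars for the scanner software's spot error and dashed lines at 1.5-fold. DDR2 lies farthest left at -1.24 and CTSK farthest right at 0.82, and the prolyl and lysyl hydroxylation groups lie between the dashed lines.

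Markers of other cell types were read on the same arrays. All 6 markers of undifferentiated ES cells were measured, with differences between -0.35 (PODXL) and 0.42 (NANOG), and VIM read 2802 and 14160 units, CDH1 9457 and 2991, in the directions of the study's staining. Of 8 fibroblast markers 4 were measured, THY1 (-0.11), PDGFRB (0.21), PDGFRA (0.65 ± 0.40) and TWIST1 (0.52 ± 0.42), with a median of 0.36. PDGFRA (16.97 and 23.45 units) and TWIST1 (16.63 and 20.91 units) were dim, so this median rests partly on dim probes. DCN, LUM, POSTN and FBN1 were near background on both arrays. Over all 8 the summed signal was 48740 units in substate 1 and 39820 in substate 2, of which THY1 gave 48200 and 39220. Summed signals here and below add the brightest probe of each listed gene, also where it was near background. Of 7 markers of cartilage and notochord 5 were measured, with TBXT and NOTO near background and a summed signal of 346.8 and 298.9 units. SOX9, the cartilage regulator, differed by 0.42 ± 0.22 and ACAN, the cartilage proteoglycan, by -0.28 ± 0.23. Of 4 neural progenitor markers GBX2 was measured on both arrays SOX1 and POU3F2 in substate 2 only, and PAX6 on neither, with a summed signal of 335 and 2298 units, of which GBX2 gave 304 and 2086. Of 5 endoderm markers 2 were measured and GATA4 was above background in substate 1 only (282 and 336 units summed over the list). Of 4 endothelial markers 3 were measured (1794 and 971 units over the list). Of 5 amnion or trophoblast markers KRT7 was measured, CGA was above background in substate 2 only, and CGB5 had no named probe (3050.0 and 3022 units over the list). The part of any of these cells in the collagen values was not tested, and in bulk RNA fewer cells of a type and less RNA per cell cannot be told apart.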

How the data were processed

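The members and gene lists were chosen with earlier results of these data known. The deposited scanner files give an intensity for each spot. In them, per the file headers, Feature Extraction 11.5.1.1 subtracted background and removed spatial trends, and the same deposited files carry other columns that flag spots as well above background, saturated (0 spots) or outliers. The authors also deposited log2 values, scaled by the 75th percentile in GeneSpring, which differed from the values computed here by a single constant per array. Here signals under 1 were set to 1 (0 spots), log2 was taken, outlier spots were dropped (1 among the collagen probes), replicate spots were averaged per probe, and each array was shifted by the 75th percentile of its non-control probes. A gene's value was the mean over its unsaturated probes that stood well above background on both arrays. Of 58201 probes, 31104 (53.4%) were named through RefSeq accessions in a table for GRCh38.p14. The array is annotated on hg19, so gene positions come from the RefSeq genes of GRCh38.p14 and the printed bases from its promoter windows. All collagen genes are named, and of the collagen assembly, receptor and turnover genes those past 1.5-fold, measured or by a bound, and a set of enzymes and receptors. A probe seen on 1 array only has a bound against the dim array's lowest signal well above background or its own, whichever is higher. Slide and scan were shared by the arrays, whose number limits the precision, and 57.4% and 54.7% of spots were well above background. Python 3.11.15, R 4.3.3 and limma 3.58.1 were used. The array scalings, but not the other steps, were tested on simulated data with a constant shift between the arrays. The alternatives tried were other scalings, normexp, outlier spots kept, the deposited log2 values, another detection flag, the brightest probe, 2-fold and the Z-score of the study.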

Additional observations from a re-analysis of the deposited data

How the results depend on the processing

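No paired analysis was possible because there was only 1 array of either kind. Median centring, outlier spots kept and the deposited log2 values moved no median or gene difference by more than the spot noise of 0.069 and no count by over 1.5 times, but median centring took the assembly genes at least 1.5-fold lower from 3 to 2. The median difference of collagen genes moved to -0.12 under normexp, and under each setting it stayed below the median of all named genes, by 0.20 to 0.33. Normexp was computed on median spot signals, since the scanner output held no mean signals, and 50 units were added to each. Such an offset narrows the differences of dim probes. Quantile and loess scaling raised the count of genes at least 1.5-fold lower from 3 to 5, adding COL1A2 and COL6A1, and moved the type IV median to -0.36 and -0.37. Under normexp COL4A4 and COL22A1 were no longer past 1.5-fold, COL6A1 was, the transmembrane median was -0.040 and 1 collagen assembly gene was higher. The flag gIsPosAndSignif gave 38 measured genes, 3 genes on 1 array only, 4 genes higher, with COL17A1 and COL6A3 added, 5 assembly genes lower, and medians of -0.031 for FACIT and 0.13 for transmembrane genes. The brightest probe gave medians of -0.053 for fibril-forming, -0.44 for short-chain and -0.23 for FACIT genes. At 2-fold 1 collagen gene was higher and 1 lower, and 0 assembly genes were higher and 1 lower. The Z-score called 1 gene higher, COL17A1, near background on both arrays, and 0 lower. Over 34 genes and 8 settings, 227 of 272 differences moved by less than the spot noise, 45 moved by more, and none past 1.5-fold changed sign. This tally includes settings that could move few of these genes. Median centring and the deposited values shift all differences by 1 constant, and keeping outliers adds 1 collagen spot. The other flag and the brightest probe act only on those of the 34 genes with several probes. Quantile scaling moved 8 of the 34 genes, loess 10 and normexp 18. Among the smaller differences 7 genes changed sign under at least 1 setting (COL4A6, COL5A1, COL5A2, COL12A1, COL16A1, COL20A1 and COL27A1). Naming by the gene name column was not run, since the scanner output held no such column. Beyond the narrowing that the normexp offset brings to dim probes, the cause of these shifts was not tested. Signal over background limits what dim probes show.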
